A study of Mus musculus with 24 samples.

Results

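The genes described here are 36 members of the glycolysis and hypoxia response, taken by symbol from the 47643 genes of the deposited count files. They comprise 2 glucose transporters, 16 glycolytic enzymes, 4 genes of pyruvate entry and monocarboxylate transport, Hif1a with 2 of its hydroxylases, and 11 other targets of hypoxia-inducible factor (HIF). The list was given by symbol and was chosen with earlier results of these data known. Shares of members called beside shares of all genes are therefore a description and not independent support. Of the 36, 34 passed the filter on low counts. Slc2a3, with 1 count in 24 libraries, and Ankrd37, with 116, did not pass and are described by level only.

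The study measured organoids, which are clusters of epithelium kept in Matrigel and started from stem and progenitor cells of C57BL/6 mouse salivary glands, and its title names microenvironmental Bmp4. Mice received irradiation (IR) or a sham treatment of the gland (sham), tissue was collected 14 or 90 days afterwards, and organoids were sequenced at passage 1 or passage 2, with 3 libraries in each of the 8 groups. All groups shared the medium, which held N2, EGF, FGF2, insulin, dexamethasone and the ROCK inhibitor Y-27632. No radiation dose is stated in the material used, and passage 2 was grown from passage 1. Whether replicates are separate animals is not stated, so a p-value here reflects the variation among libraries, part or all of which could be technical. In such bulk cultures, fewer cells of a type and less RNA per cell cannot be told apart.

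Glycolysis splits glucose into pyruvate in the cytosol and yields ATP without oxygen, and lactate dehydrogenase regenerates the NAD+ that it needs. HIF-1 is a transcription factor whose alpha subunit, encoded by Hif1a, is marked for breakdown by prolyl hydroxylases (the Egln genes) when oxygen is present. When oxygen is scarce the protein persists, binds the core sequence ACGTG or GCGTG in promoters and enhancers, and raises transcription of glucose transporters, glycolytic enzymes and genes of blood vessel growth and acid balance. This control acts on the protein, so the Hif1a transcript is not a measure of HIF activity. Glycolytic genes also have regulators other than HIF, and so the enzymes are read apart from the other targets here.

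Promoter sequence is shown for the 6 members that were called in a comparison of 2 groups and whose promoter held a match. It is also shown for Ldha, an enzyme whose transcript did not pass any test, so that the HIF core can be seen in its surroundings. The windows come from RefSeq promoters of build GRCm38.p6 and each is 120 bases long, read 5' to 3' on the strand of the gene, within the 250 bases before the start site. Capitals mark the cores ACGTG and GCGTG, on either strand. A palindrome that holds the first core on both strands counts as 2 matches.
Hif1a, chr12:73907682-73907801, plus strand: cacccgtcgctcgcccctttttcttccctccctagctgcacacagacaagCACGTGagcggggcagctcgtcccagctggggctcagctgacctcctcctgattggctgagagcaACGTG
Egln3, chr12:54203984-54204103, minus strand: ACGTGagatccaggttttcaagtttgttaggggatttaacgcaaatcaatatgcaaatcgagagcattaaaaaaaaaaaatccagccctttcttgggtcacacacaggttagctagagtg
Slc16a3, chr11:120948938-120949057, plus strand: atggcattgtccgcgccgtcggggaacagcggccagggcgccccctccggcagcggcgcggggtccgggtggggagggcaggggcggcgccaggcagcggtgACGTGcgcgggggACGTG
Pfkp, chr13:6648790-6648909, minus strand: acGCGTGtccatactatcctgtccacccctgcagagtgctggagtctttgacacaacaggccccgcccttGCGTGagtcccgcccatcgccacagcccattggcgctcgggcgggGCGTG
Slc16a11, chr11:70213777-70213896, plus strand: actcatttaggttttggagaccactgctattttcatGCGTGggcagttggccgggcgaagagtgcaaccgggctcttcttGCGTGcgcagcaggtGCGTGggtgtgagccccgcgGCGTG
Adm, chr7:110627488-110627607, plus strand: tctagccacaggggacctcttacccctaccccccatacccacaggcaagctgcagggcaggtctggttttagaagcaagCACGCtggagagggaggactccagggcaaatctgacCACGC
Ldha, chr7:46845655-46845774, plus strand: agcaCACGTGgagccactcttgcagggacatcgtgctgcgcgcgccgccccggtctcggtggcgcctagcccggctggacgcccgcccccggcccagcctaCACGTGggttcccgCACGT
In the 250 bases before the start, Hif1a had 3 matches to ACGTG, Slc16a3 had 2, and Egln3 had 1. Ldha had 5 in the window of the start site shown and none in that of its other start site, which held 1 match to GCGTG. Slc16a11 had 4 matches to GCGTG, Pfkp 3 and Adm 2. No match was found for Car12. Over the 33 members with a RefSeq window, some of which have more than 1 start site, 22 of 44 windows held ACGTG on either strand, against 16.6% of 32851 windows of all genes. For GCGTG the shares were 56.8% and 28.2%, and for either motif 81.8% and 38.6%. Some members were listed because they are known HIF targets, so this difference is a description and a match is not a binding site.

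Library depth lay between 1151608 and 3189466 gene counts, of which 11.8% to 29.0% fell on Gm42418, a predicted gene at a ribosomal RNA repeat. The cultures carried epithelial transcripts: the 12 epithelial markers summed to 5599 to 12852 CPM (counts scaled to the same library total, with TMM factors), and Epcam and Cdh1 were present in every library. The summed mesenchymal markers reached at most 3.85 CPM (Col3a1 and Pdgfrb at 0 in all libraries), endothelial markers 2.06 CPM and muscle markers 6.64 CPM. Immune markers reached 49.0 CPM, with Lyz2 up to 40.9 CPM. The sum of 10 interferon response genes ranged from 36.9 to 1176 CPM and differed within groups. In 5 libraries either this sum or the Gm42418 share stood apart from the other libraries of the group: sham day 14 passage 1 replicate 2, sham day 14 passage 2 replicate 1, IR day 14 passage 2 replicate 3, sham day 90 passage 1 replicate 1 and IR day 90 passage 2 replicate 1. Calls that changed without them are given with both values.

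Across the 8 groups, 11 of the 34 tested members differed, and 10 of those 11 were not glycolytic enzymes. They were Hif1a, Egln3, Car12, Adm, P4ha1, Slc2a1, Pdk1, Slc16a1, Slc16a3 and Slc16a11, with Pfkp as the 1 enzyme of 16. The same test of any difference among the groups (edgeR, quasi-likelihood, adjusted p under 0.05 by Benjamini-Hochberg over 10563 genes) called 15% of all tested genes. Without the 5 libraries that stand apart it called 17 members and 23.8% of all tested genes.

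**Figure D1:**
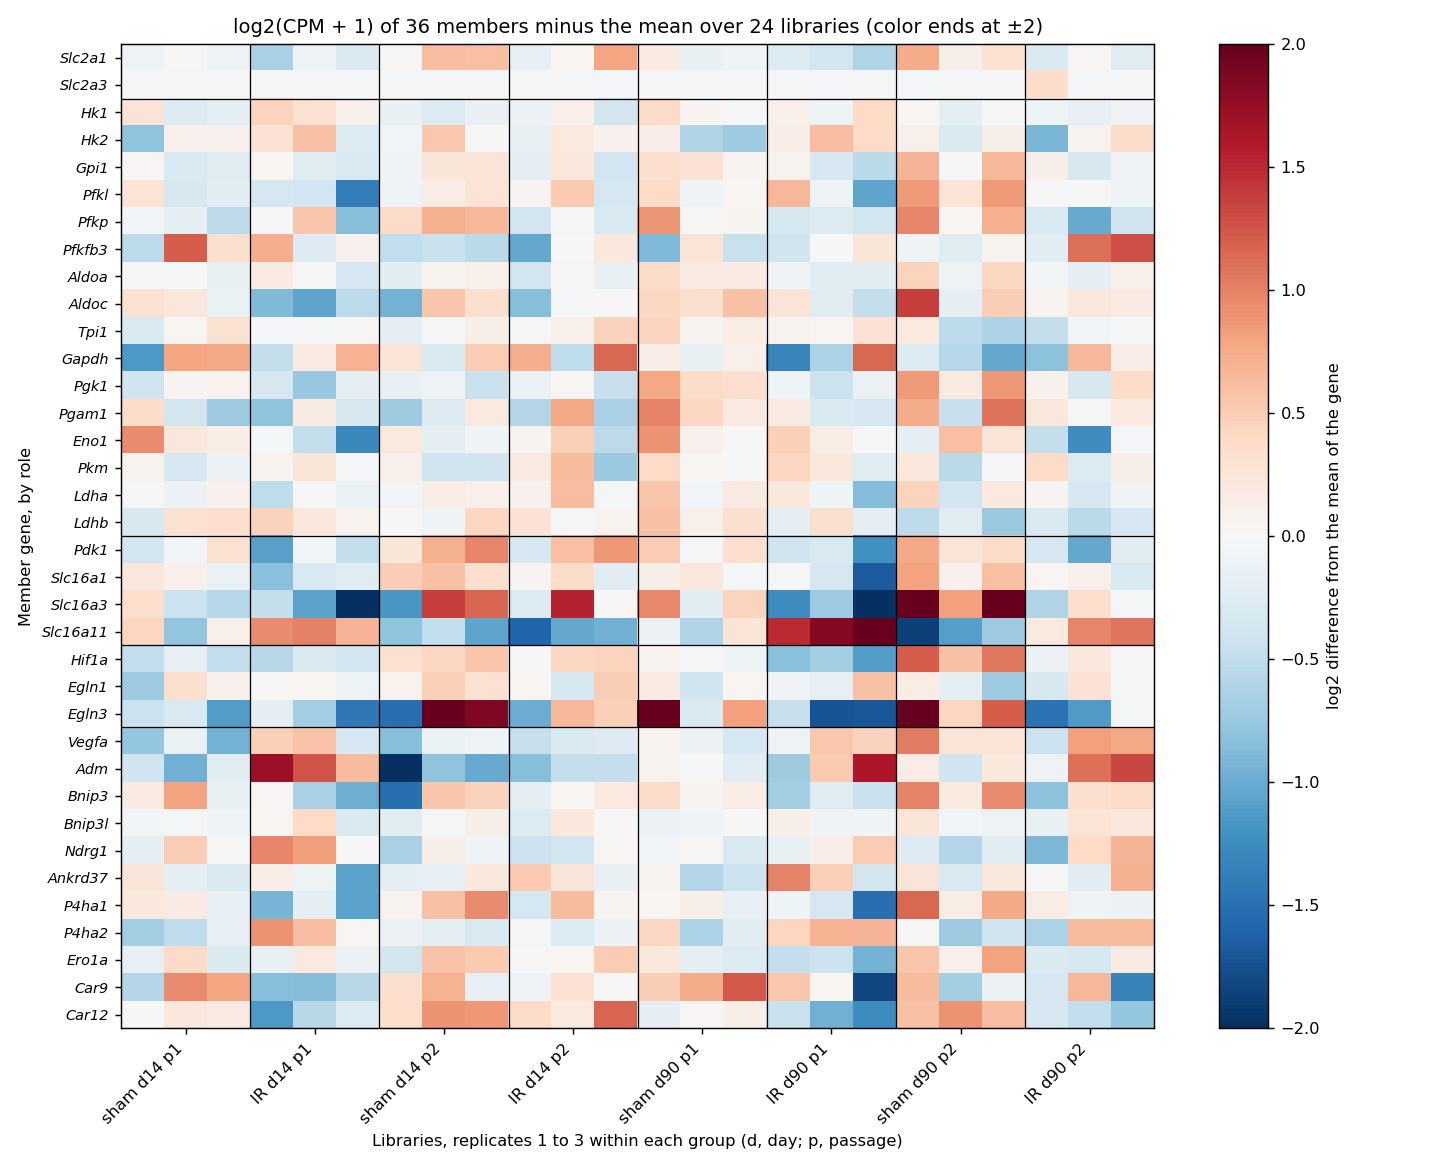
Heat map of all 36 members (rows, ordered by role) in 24 libraries (columns, 3 per group), as log2(CPM + 1) minus the mean of the gene; red is higher and blue is lower. Sham day 90 passage 2 replicate 1 held the highest value for 12 of the 34 tested members and IR day 90 passage 1 replicate 3 the lowest for 10.

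Hif1a, the oxygen-labile subunit of HIF-1, was the member called in the most pairwise comparisons together with Slc16a11, at higher levels in passage 2 in 3 of 4 comparisons and at lower levels in IR than in sham at day 90 in passage 2. In sham libraries Hif1a stood at 167, 210 and 167 CPM (day 14, passage 1), 290, 315 and 345 CPM (day 14, passage 2), 247, 229 and 219 CPM (day 90, passage 1) and 545, 355 and 492 CPM (day 90, passage 2). In IR libraries it stood at 160, 192 and 182 CPM, 236, 314 and 322 CPM, 132, 147 and 108 CPM, and 217, 274 and 238 CPM in the same order. Every sham library of day 90 was above every IR library of the same passage, while at day 14 the libraries of IR and sham overlapped in both passages. By group mean the order was sham day 90 passage 2, sham day 14 passage 2, IR day 14 passage 2, IR day 90 passage 2, sham day 90 passage 1, sham day 14 passage 1, IR day 14 passage 1 and IR day 90 passage 1. Neighbours in that order overlapped between libraries, except at its top, where sham day 90 passage 2 lay above sham day 14 passage 2, and at its bottom and between sham day 90 passage 1 and sham day 14 passage 1.

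At day 90 in passage 2, Hif1a was lower in IR, with 243 ± 29.2 CPM (SD, n = 3) against 464 ± 98.4 in sham, which is -0.93 as a log2 fold change (SE 0.17, adjusted p = 0.00268). The call was lost with only the compared groups in the fit (adjusted p = 0.0706) and held under the other alternatives. In passage 1 of day 90 the log2 fold change was -0.84 (SE 0.17) with adjusted p = 0.0553, which did not pass, and 3 settings moved it past the threshold: DESeq2, no filter on low counts and leaving out the 5 libraries (log2 fold change -0.79, adjusted p = 0.0255). From passage 1 to passage 2 Hif1a rose in sham organoids of day 14 (log2 fold change 0.80, SE 0.17, adjusted p = 0.0211), in sham organoids of day 90 (1.00, SE 0.17, adjusted p = 0.00313) and in IR organoids of day 14 (0.71, SE 0.17, adjusted p = 0.0379). In IR organoids of day 90 the value was 0.91 (SE 0.17, adjusted p = 0.0583), which 4 of 14 alternatives moved past the threshold, among them leaving out the 5 libraries (1.00, adjusted p = 0.00580). The sham day 90 rise held under every alternative, with an adjusted p of at most 0.0282. The sham day 14 call was lost when sham passage 1 replicate 1 or 3, or passage 2 replicate 2 or 3, was left out (adjusted p up to 0.142). The IR day 14 call was lost in 7 of 14 alternatives, among them leaving out the 5 libraries (0.62, adjusted p = 0.113) and leaving out any of 5 single libraries (adjusted p up to 0.248). These comparisons share libraries: sham day 90 passage 2 enters both the IR and the passage contrast.

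Of the 2 hydroxylase genes, Egln3, itself a HIF target, was lower in IR at day 90 in passage 2, and Egln1, which encodes the main prolyl hydroxylase, did not pass any test. Egln3 stood at 75.5, 9.42 and 16.9 CPM in sham and at 1.79, 2.51 and 6.49 CPM in IR. The log2 fold change was -3.27 (SE 0.86, adjusted p = 0.0281). The libraries did not overlap, and sham replicate 1 was far above the other two. Without that library the log2 fold change was -1.90, and without IR replicate 3 it was -3.98. It was no longer called without that sham library, nor without any 1 IR library or with only the compared groups (adjusted p up to 0.260). In passage 1 of day 90 Egln3 stood at 35.0, 5.28 and 12.7 CPM in sham and 4.64, 1.32 and 1.39 CPM in IR, and the difference did not pass (log2 fold change -2.65, SE 1.03, adjusted p = 0.272). At day 14 the values were 4.73, 5.24 and 2.57 CPM (sham) and 5.77, 3.78 and 1.88 CPM (IR) in passage 1, and 1.71, 42.5 and 27.1 CPM (sham) and 2.87, 11.3 and 9.78 CPM (IR) in passage 2. The low sham value of 1.71 CPM came from a library that stands apart, with an interferon sum of 36.9 CPM against 993 and 924 CPM in replicates 2 and 3. Egln1 ranged from 20.3 to 51.5 CPM.

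**Figure D2:**
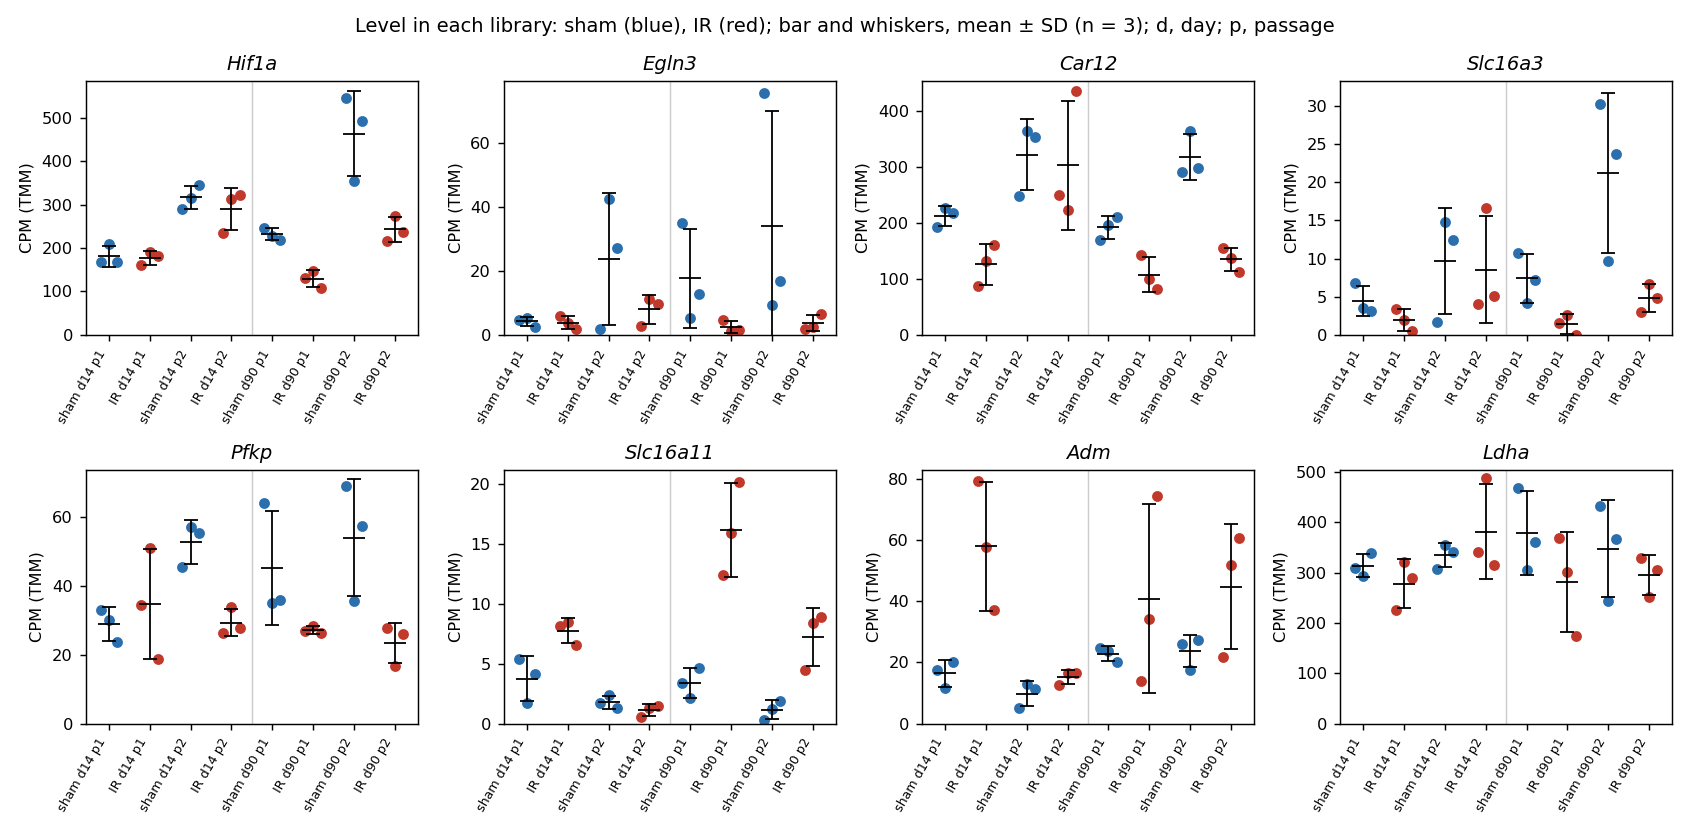
Level in CPM of 8 members in each library (dots, sham blue, IR red; 3 per group) with mean ± SD (black bar and whiskers, cut at 0 where they would fall below it), for the 4 groups of day 14 (d14) and the 4 of day 90 (d90); p1 and p2 are passages. Hif1a, Egln3, Car12, Slc16a3 and Pfkp are lower and Slc16a11 is higher in IR than in sham at day 90, passage 2, without overlap.

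Of the 16 glycolytic enzymes, 15 passed no test of IR, passage, day or interaction, and the exception was Pfkp. Their summed level lay between 1120 and 1891 CPM over the 24 libraries. It came to 1341 ± 62.9 CPM (SD, n = 3) in sham and 1368 ± 114 CPM in IR at day 14 in passage 1, and to 1364 ± 22.2 and 1469 ± 339 CPM in passage 2. At day 90 it came to 1606 ± 247 and 1384 ± 218 CPM in passage 1, and to 1513 ± 362 and 1369 ± 150 CPM in passage 2. In passage 1 of day 90, 5 enzymes were lower and 1 higher in IR without overlap, against 10.3% and 9.21% of all tested genes. Their median log2 fold change was -0.25 there, with 5 positive and 11 negative. Group means of a single enzyme differed by 1.30-fold (Pkm) to 2.92-fold (Aldoc) from the lowest to the highest group. The glucose transporter Slc2a1 (GLUT1) stood at 97.9, 106 and 99.1 CPM in sham and 66.8, 98.3 and 86.3 CPM in IR at day 14 in passage 1, and at 107, 162 and 160 and 94.0, 108 and 183 CPM in passage 2. At day 90 it stood at 118, 95.4 and 99.6 CPM in sham and 87.7, 81.3 and 68.9 CPM in IR in passage 1, and at 177, 114 and 131 and 86.0, 107 and 89.2 CPM in passage 2. In both passages of day 90 every IR library was below every sham library. The log2 fold changes were -0.39 (SE 0.22) in passage 1 and -0.58 (SE 0.22) in passage 2, with adjusted p of 0.477 and 0.141.

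Levels of these 3' tag counts do not grow with transcript length, and in that count scale Pkm (median 445 CPM), Ldha (317 CPM) and Aldoa (233 CPM) were above the other enzymes, at 256 to 667, 174 to 488 and 182 to 320 CPM over 24 libraries. Gapdh, Pgk1 and Eno1, by contrast, had medians of 12.8, 3.58 and 8.48 CPM. Near-identical copies touch some of these: 36.3% of the 50-base words in the last 300 bases of Gapdh and 90.0% of those of Eno1 occur in other annotated genes (5 genes for Gapdh, 1 for Eno1). For Aldoa, Ldhb and Ndrg1 the shares were 2.39%, 4.38% and 2.39%, and for Pgk1 the share was 0%. Of 10 listed copies of members, 4 held counts over the 24 libraries. Pgk1-rs7 held 31, Eno1b 17 and Gapdh-ps14 7, where Pgk1, Eno1 and Gapdh held 231, 459 and 689. Bnip3l-ps held 20, where Bnip3l held 2595. No source used here states how reads that match several places were handled, so these levels are uncertain. The part of such reads in them was not tested.

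Gapdh, the enzyme often used as a reference gene, differed widely between libraries of the same group. It stood at 4.73, 20.95 and 20.5 CPM in sham and 8.17, 13.2 and 19.7 CPM in IR at day 14 in passage 1, and at 14.2, 9.45 and 17.2 and 20.1, 7.96 and 27.2 CPM in passage 2. At day 90 it stood at 12.98, 10.6 and 12.7 and 4.12, 7.27 and 27.1 CPM in passage 1, and at 9.59, 7.60 and 5.26 and 6.25, 19.2 and 12.98 CPM in passage 2. Sham and IR overlapped in all 4. Ldha, which makes lactate from pyruvate, stood at 309, 294 and 338 CPM in sham and 225, 320 and 289 CPM in IR at day 14 in passage 1, and at 307, 354 and 341 and 340, 488 and 314 CPM in passage 2. At day 90 it stood at 468, 305 and 361 and 369, 301 and 174 CPM in passage 1, and at 433, 244 and 366 and 329, 252 and 304 CPM in passage 2. The libraries overlapped in each pair; the log2 fold change of IR at day 90 was -0.42 (SE 0.24) in passage 1 and -0.24 (SE 0.24) in passage 2, and neither passed (adjusted p = 0.475 and 0.673). With 1 library left out in turn these values ran from -0.67 to -0.18 and from -0.44 to -0.062.

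Pfkp, the platelet form of phosphofructokinase, which commits sugar to glycolysis, was lower in IR at day 90 in passage 2. It stood at 69.2, 35.6 and 57.5 CPM in sham and 27.7, 16.7 and 25.96 CPM in IR, giving a log2 fold change of -1.19 with an SE of 0.29 and an adjusted p = 0.0182. In passage 1 of day 90 the values were 64.3, 35.2 and 35.96 and 26.8, 28.4 and 26.4 CPM, again without overlap (log2 fold change -0.71, SE 0.30, adjusted p = 0.326). At day 14 they were 33.1, 30.3 and 23.6 and 34.6, 51.0 and 18.8 CPM in passage 1 and 45.5, 57.3 and 55.6 and 26.4, 33.8 and 27.9 CPM in passage 2. The call at day 90 in passage 2 was lost with only the compared groups and without sham replicate 1 or 3 or either of IR replicates 2 and 3 (highest adjusted p 0.127). Pitrm1, which overlaps Pfkp on the other strand, had a log2 fold change of -0.18 (adjusted p = 0.725) there. In that comparison 5 of the 16 enzymes had a positive and 11 a negative log2 fold change, with a median of -0.28 against 0.01 over all tested genes. The other phosphofructokinase subunit, Pfkl, ranged from 4.22 to 23.7 CPM, Pfkfb3, which makes the activator of phosphofructokinase, from 4.01 to 23.9 CPM, and the hexokinases Hk1 and Hk2, which trap glucose in the cell, from 65.2 to 114 and 16.7 to 50.2 CPM. Aldoc, an aldolase, ranged from 18.0 to 101 CPM, Gpi1, the isomerase of the second step, from 49.4 to 117 CPM, Tpi1 from 50.7 to 109 CPM, Pgk1 from 1.89 to 7.89 CPM, Pgam1 from 5.77 to 24.04 CPM, Eno1 from 2.81 to 16.9 CPM and Ldhb from 6.76 to 18.6 CPM.

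**Figure D3:**
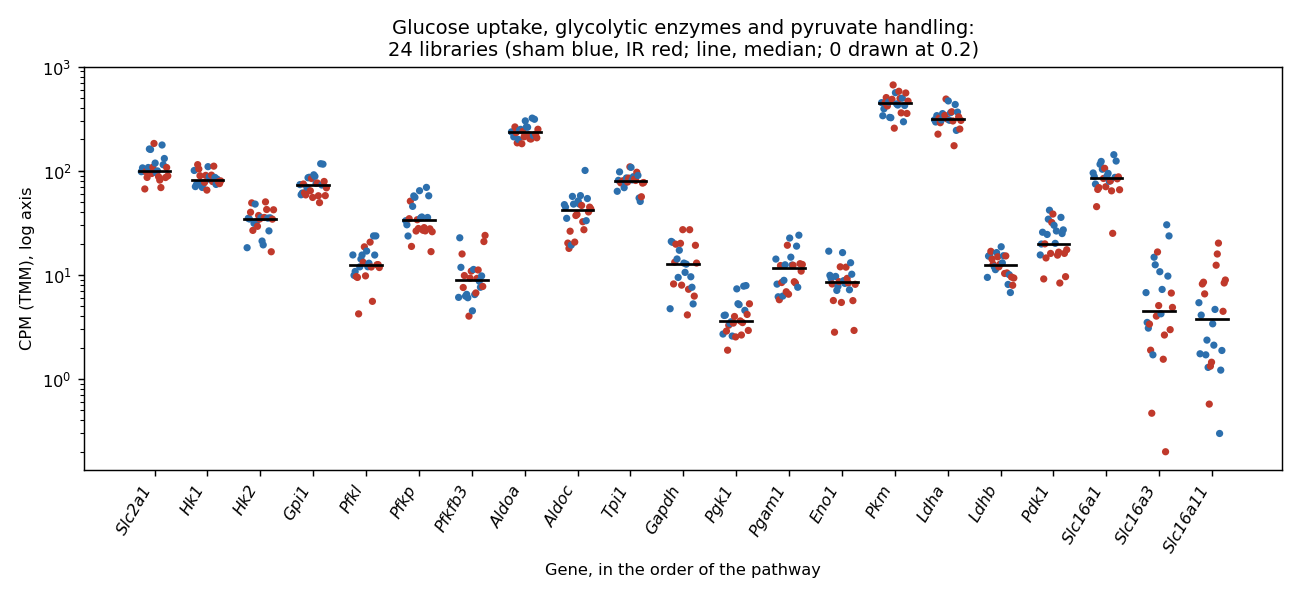
Level in CPM (log axis) of Slc2a1, the 16 glycolytic enzymes and the 4 genes of pyruvate entry and transport, in pathway order; dots are 24 libraries (sham blue, IR red), the line is the median, and 0 is drawn at 0.2. Pkm, Ldha and Aldoa lie highest, with medians of 445, 317 and 233 CPM, and Slc16a3 and Slc16a11 spread most.

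Among genes that handle pyruvate and lactate, the 2 transporters of low level moved in opposite directions with IR at day 90. Slc16a3 (MCT4), which exports lactate and is a HIF target, stood at 30.3, 9.73 and 23.7 CPM in sham and 2.98, 6.68 and 4.87 CPM in IR in passage 2. The log2 fold change was -2.15 (SE 0.60, adjusted p = 0.0385). The call was lost with only the compared groups and without sham replicate 1 or 3 or any 1 IR library (adjusted p up to 0.149). In passage 1 of day 90 Slc16a3 stood at 10.7, 4.22 and 7.24 CPM in sham and 1.55, 2.64 and 0 CPM in IR, without overlap (log2 fold change -2.28, SE 0.87, adjusted p = 0.265). At day 14 it stood at 6.75, 3.49 and 3.08 and 3.37, 1.89 and 0.469 CPM in passage 1 and at 1.71, 14.8 and 12.5 and 4.01, 16.6 and 5.07 CPM in passage 2. These are few counts: the IR day 90 passage 1 group held 7 in all.

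Slc16a11, a proton-coupled monocarboxylate transporter, stood at 0.300, 1.22 and 1.88 CPM in sham and 4.46, 8.36 and 8.92 CPM in IR at day 90 in passage 2, or 10 counts against 57. The log2 fold change was 2.65 (SE 0.48, adjusted p = 0.00281). In passage 1 it stood at 3.39, 2.11 and 4.66 CPM in sham and 12.4, 15.9 and 20.2 CPM in IR, giving a log2 fold change of 2.20 with an SE of 0.41 and an adjusted p = 0.0481. The passage 2 call was lost with only the compared groups (adjusted p = 0.0706); the passage 1 call was lost in 7 of 14 alternatives, namely with the Gm42418 share as a covariate, with only the compared groups and without any of 5 single libraries (adjusted p up to 0.584). At day 14 it stood at 5.40, 1.75 and 4.11 and 8.17, 8.50 and 6.56 CPM in passage 1 and at 1.71, 2.36 and 1.29 and 0.573, 1.33 and 1.45 CPM in passage 2. It was lower in passage 2 than in passage 1 in IR organoids of day 14 (log2 fold change -2.67, SE 0.54, adjusted p = 0.0189; lost with only the compared groups and without IR passage 1 replicate 1 or 2 or passage 2 replicate 1 or 3, adjusted p up to 0.118). It was higher at day 90 than at day 14 in IR organoids of passage 2 (2.57, SE 0.52, adjusted p = 0.0303; lost with only the compared groups and without any IR day 14 library or IR day 90 replicate 2 or 3, adjusted p up to 0.366). Its neighbour Slc16a13, a related transporter named after its values were seen, was also higher in IR at day 90 in passage 2 (log2 fold change 1.10, adjusted p = 0.0171). Pdk1, which inhibits pyruvate dehydrogenase, ranged from 8.35 to 41.8 CPM. At day 90 in passage 2 it stood at 35.6, 24.9 and 27.0 CPM in sham and 16.1, 9.61 and 17.4 CPM in IR. The difference did not pass (log2 fold change -1.01, SE 0.31, adjusted p = 0.0660). Slc16a1 (MCT1), which carries lactate and pyruvate, ranged from 25.05 to 143 CPM.

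Among the other HIF targets, Car12 passed pairwise tests of IR, passage and day, Adm passed a test of passage, and the rest did not pass a pairwise test. Car12, a membrane carbonic anhydrase that helps hold the pH around the cell, stood at 291, 364 and 297 CPM in sham and 154, 138 and 113 CPM in IR at day 90 in passage 2. The log2 fold change was -1.23 (SE 0.25, adjusted p = 0.00553), and the call was lost without IR replicate 3 (adjusted p = 0.0514). In passage 1 of day 90 it stood at 169, 196 and 210 and 142, 99.8 and 81.4 CPM (log2 fold change -0.83, SE 0.25, adjusted p = 0.160). At day 14 it stood at 193, 226 and 217 and 87.0, 131 and 160 CPM in passage 1 and at 248, 364 and 354 and 250, 223 and 435 CPM in passage 2. All 3 IR libraries were below all 3 sham libraries in both passages of day 90 and in passage 1 of day 14. In IR organoids of day 14 Car12 was higher in passage 2 (1.27, SE 0.25, adjusted p = 0.0164); leaving out the 5 libraries that stand apart (0.90, adjusted p = 0.0548), IR passage 1 replicate 1 or 2, or IR passage 2 replicate 3 ended this call, as did fitting only the compared groups (adjusted p up to 0.146). In IR organoids of passage 2 it was lower at day 90 than at day 14 (-1.17, SE 0.25, adjusted p = 0.0398), a call lost with only the compared groups and without IR day 14 replicate 3 or IR day 90 replicate 2 or 3 (adjusted p up to 0.482).

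Adm, which encodes the vessel-dilating peptide adrenomedullin, stood at 17.6, 11.6 and 20.0 CPM in sham and 79.3, 57.6 and 37.0 CPM in IR at day 14 in passage 1, without overlap. The difference did not pass over all genes (log2 fold change 1.81, SE 0.46, adjusted p = 0.0772), although 4 alternatives moved it past the threshold. In passage 2 of day 14 the values were 5.12, 12.99 and 11.2 and 12.6, 16.6 and 16.7 CPM, so that in IR organoids Adm was lower in passage 2 (log2 fold change -1.91, SE 0.45, adjusted p = 0.0371; lost in 6 of 14 alternatives, among them without the 5 libraries, at -1.999 with adjusted p = 0.0519; adjusted p up to 0.251). At day 90 it stood at 24.8, 23.6 and 20.2 and 13.9, 34.4 and 74.4 CPM in passage 1 and at 26.1, 17.6 and 27.4 and 21.7, 51.8 and 60.8 CPM in passage 2. Vegfa, the growth factor for blood vessels, stood at 45.9, 71.6 and 40.6 CPM in sham and 111, 117 and 62.4 CPM in IR at day 14 in passage 1, and at 43.2, 71.5 and 74.5 and 56.8, 63.7 and 65.5 CPM in passage 2. At day 90 it stood at 82.9, 72.2 and 61.6 and 73.7, 114 and 109 CPM in passage 1, and at 164, 93.9 and 94.6 and 58.3, 140 and 135 CPM in passage 2. Sham and IR overlapped in all 4 comparisons.

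Ndrg1, a stress-responsive HIF target, ranged from 54.8 to 204 CPM, and the collagen prolyl hydroxylases P4ha1 and P4ha2 from 7.65 to 53.6 and 14.0 to 44.7 CPM. Ero1a, the oxidase that forms disulfide bonds, ranged from 19.5 to 68.0 CPM, and the mitophagy receptors Bnip3 and Bnip3l from 6.82 to 43.1 and 39.4 to 64.2 CPM. Car9, a carbonic anhydrase often used as a hypoxia marker, reached 7.24 CPM at most and Ankrd37, another HIF target, 5.16 CPM.

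Over the 4 comparisons of IR with sham, members were called almost only at day 90 in passage 2. There 6 of 34 were called (1 higher, 5 lower) against 4.92% of all tested genes (2.97% higher and 1.95% lower). 9 members had libraries that did not overlap there, 1 higher and 8 lower, against 10.9% and 9.64% of all tested genes. In passage 1 of day 90, 1 member, higher, was called against 0.0473% of all tested genes (0.0284% higher, 0.0189% lower), and 3 were higher and 13 lower without overlap, against 9.21% and 10.3% of all tested genes. Leaving out the 5 libraries gave 12 called members at day 90 in passage 2 and 5 in passage 1, where 13.9% and 2.27% of all tested genes were called, and fitting only the compared groups gave 1 and 0. At day 14 in passage 1 edgeR called none of 34 members and 0.341% of all genes, and DESeq2 called 1 member. There 9 of the 34, and 1160 of all 10563 tested genes, had an unadjusted p under 0.05. The smallest p belonged to Adm, P4ha2 (log2 fold change 1.02, adjusted p = 0.217) and Car12 (-0.75, adjusted p = 0.233). In passage 2 of day 14 edgeR called none of the 34 and 0.0189% of all genes, and DESeq2 called 0 members. An unadjusted p under 0.05 was found for 1 of the 34 and for 711 of all 10563 tested genes. The smallest p were those of Pfkp (-0.85), Egln3 (-1.56) and Slc16a1 (-0.40), each with an adjusted p over 0.5. In passage 2 of day 90 the interferon sum was 661 to 1176 CPM in sham and 130 to 447 CPM in IR, and the acinar sum, which rests on Pip, was 289 to 1222 and 151 to 267 CPM. None of the 10 interferon and none of the 2 tested acinar markers was called there. Of the 12 epithelial markers 4 were: the keratins of simple and luminal epithelium Krt8 (log2 fold change 1.75), Krt18 (1.58) and Krt7 (1.56) were higher in IR, and Trp63, a factor of basal cells, was lower (-1.14). Krt8 was also higher in IR in passage 1 of day 90 (1.16, adjusted p = 0.0392) and in passage 2 of day 14 (1.22, adjusted p = 0.0454). The acinar sum in passage 1 of day 90 was 262 to 321 CPM in sham and 31.3 to 180 CPM in IR. In passage 1 of day 14 it was 385 to 514 CPM in sham and 128 to 346 CPM in IR. The interferon sum there was 72.4 to 846 and 39.9 to 47.2 CPM, and the immune sum 8.10 to 8.73 and 17.3 to 49.0 CPM. In passage 2 of day 14 the epithelial sum was 11425.5 to 12852.5 CPM in sham and 8139 to 9973 CPM in IR. The immune sum was 0.861 to 1.18 and 1.45 to 5.97 CPM. The other marker sums overlapped at day 14. The part of any of these in the results was not tested.

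**Figure D4:**
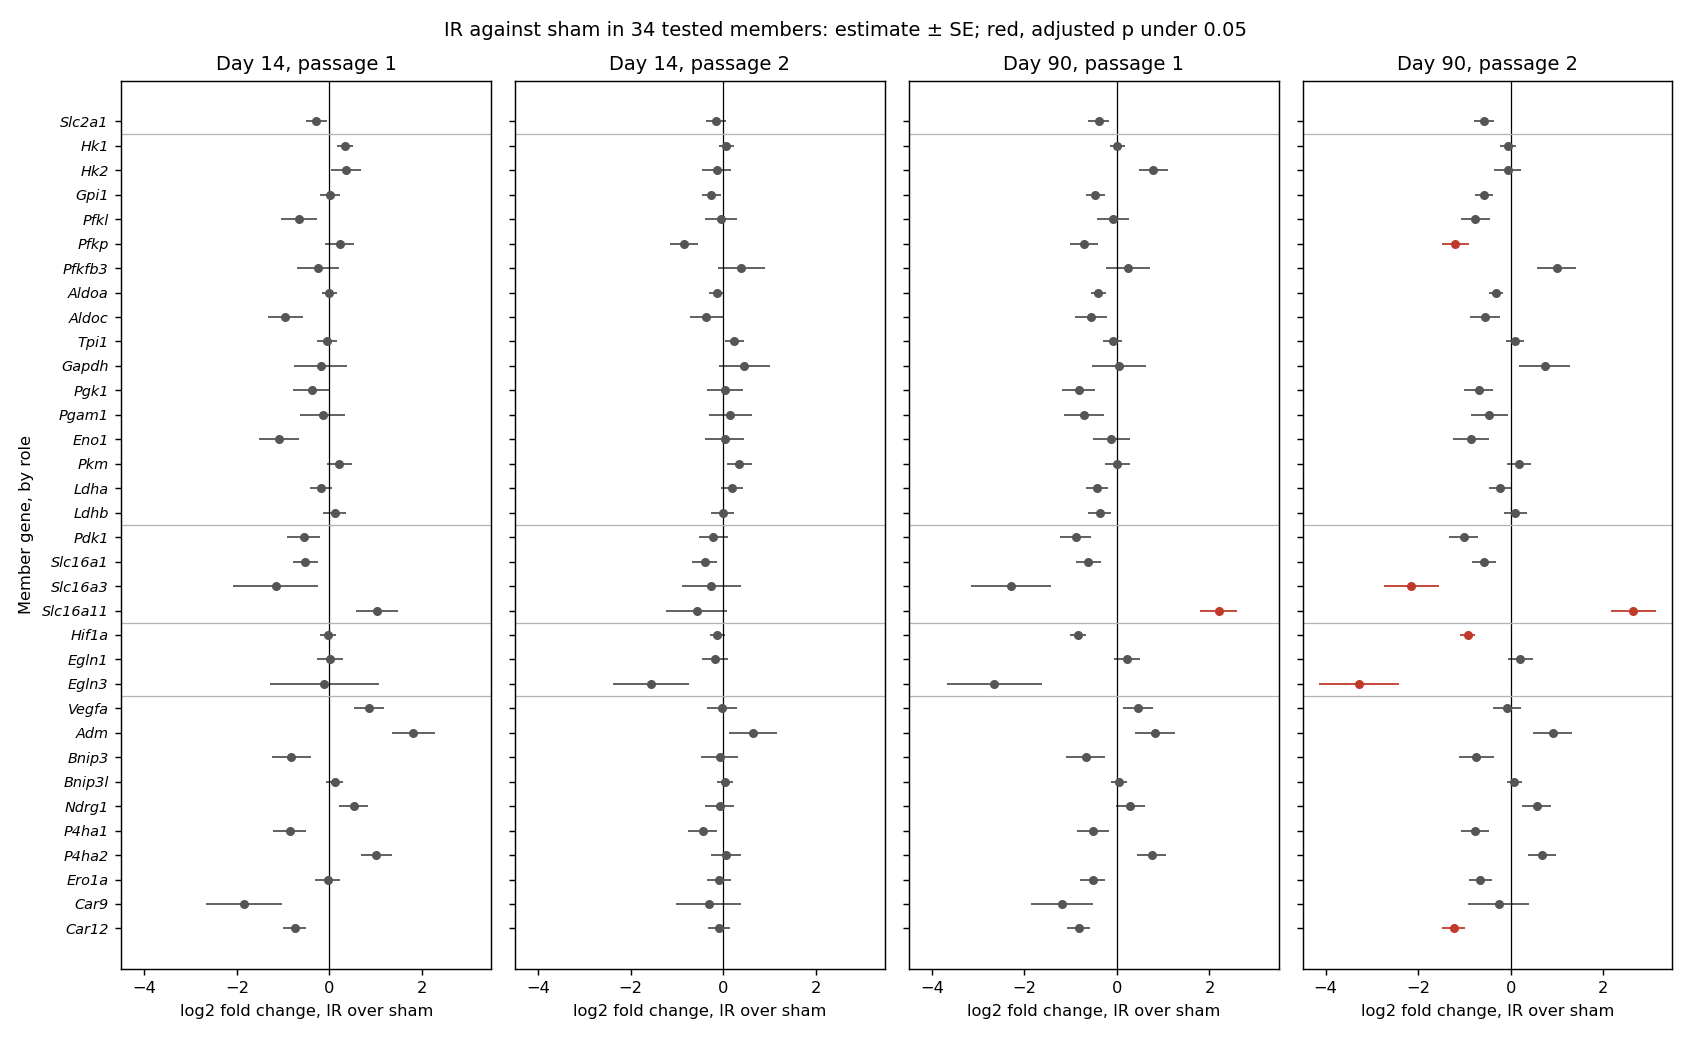
Log2 fold change of IR over sham (dot) ± SE (line) for the 34 tested members by role, in the 4 day and passage combinations; red dots passed an adjusted p of 0.05. Slc16a11 passes in both passages of day 90, and Pfkp, Slc16a3, Hif1a, Egln3 and Car12 in passage 2 only by this threshold.

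From passage 1 to passage 2, edgeR called 1 member in sham organoids of day 14 (1.18% of all tested genes) and 1 in sham organoids of day 90 (1.36%). In IR organoids it called 4 at day 14 (1.38%) and 0 at day 90 (0%). For IR organoids of day 90, 3 of 34 members and 1066 of all 10563 tested genes had an unadjusted p under 0.05, and DESeq2 called 1 member. The members called by edgeR are Hif1a and, in IR organoids of day 14, Hif1a, Car12, Adm and Slc16a11, as given above. In IR organoids of day 90 the smallest p after Hif1a belonged to Slc16a11 (log2 fold change -1.16, adjusted p = 0.291) and Pfkfb3 (0.95, adjusted p = 0.487). The summed immune markers were lower in passage 2 in 3 of these 4 comparisons without overlap, at 0.861 to 5.97 CPM against 8.10 to 49.0 CPM at day 14, and at 0.406 to 2.38 against 3.61 to 35.5 CPM in IR organoids of day 90. Only 1 of the 5 immune markers could be tested, and the highest sums rest on Lyz2. Ptprc reached at most 1.16 CPM, and Adgre1 and Cd3e were each at 0 in 23 libraries. Krt7, Krt8 and Krt18 were lower in passage 2 in sham organoids of day 14 (log2 fold changes -2.08, -1.91 and -1.79), in sham organoids of day 90 (-1.52, -1.50 and -1.19) and in IR organoids of day 14 (-1.40, -1.06 and -1.01). The sum of the 12 epithelial markers was higher in sham organoids of day 14 without overlap. In sham organoids of day 90 the lysozyme gene Lyz2, an immune marker, was also lower (-5.71, adjusted p = 0.0484). There the proliferation sum was 228 to 409 CPM in passage 2 against 507 to 842 CPM, and the interferon sum 661 to 1176 CPM against 42.3 to 587 CPM. The interferon sum was also higher in passage 2 in both IR comparisons, at 48.2 to 839 against 39.9 to 47.2 CPM at day 14 and 130 to 447 against 39.7 to 47.4 CPM at day 90. The acinar sum was higher in IR organoids of day 14, at 399 to 1991 against 128 to 346 CPM. The part of these in the results was not tested.

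From day 14 to day 90 edgeR called no member in sham organoids of passage 1, where no gene of all tested was called. It also called none in sham organoids of passage 2 (0.426% of all called) or IR organoids of passage 1 (0.170%). DESeq2 called 0 in each. In that order 2, 5 and 3 of 34 members had an unadjusted p under 0.05, as had 1025, 1448 and 720 of all 10563 tested genes. In IR organoids of passage 2 edgeR called 2, Slc16a11 and Car12 (0.435%). Without the 5 libraries it called 6 there, beside 4.24% of all tested genes, and Slc16a11 had a log2 fold change of 3.16. The acinar sum there was 151 to 267 CPM at day 90 and 399 to 1991 CPM at day 14, and its part was not tested. The smallest p were those of Egln3 (log2 fold change 2.01), Hif1a (0.35) and Pfkp (0.62) in sham of passage 1, of Hif1a (0.55), Pgk1 (1.08) and Vegfa (0.89) in sham of passage 2, and of Slc16a11 (1.06), Hif1a (-0.46) and Ero1a (-0.59) in IR of passage 1, each with an adjusted p over 0.1.

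The difference in the IR effect between days and between passages was tested as an interaction, and edgeR called no member in any of 4 (0.0189% and 0.00947% of all genes called for day in passages 1 and 2, 0% for passage at both days; DESeq2 called 0 members in each). Of all 10563 tested genes, 857 and 543 had an unadjusted p under 0.05 for day in passages 1 and 2. For passage at days 14 and 90 the counts of all genes were 729 and 407. For day in passage 1, with 2 members at an unadjusted p under 0.05, the smallest p belonged to Hif1a (interaction on the log2 scale -0.82, SE 0.24, adjusted p = 0.324), Pfkp (-0.93) and Slc16a11 (1.16). For day in passage 2, with 4, it belonged to Slc16a11 (3.23, SE 0.83, adjusted p = 0.523), Hif1a (-0.81) and Car12 (-1.15). For passage at day 14, with 1, it belonged to Pfkp (-1.07), P4ha2 (-0.95) and Slc16a11 (-1.61), and for passage at day 90, with 0, to Hk2 (-0.85), Pfkl (-0.69) and Ldhb (0.48). Thus a call at day 90 and none at day 14 is not shown to be a difference between the days.

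Of 84 other genes of the pathways, listed beside the members, 60 passed the filter, 23 of glycolysis and pyruvate and 37 of HIF and hypoxia. In IR against sham at day 90 in passage 2, 3 of the 23 were called, 2 higher and 1 lower, where 4.92% of all tested genes were called (2.97% higher, 1.95% lower): the insulin-responsive glucose transporter Slc2a4 was lower (log2 fold change -1.67) and the monocarboxylate transporter Slc16a7 (2.50) was higher, as was Slc16a13. Of the 37, 2 were higher and 1 lower. Edn1 (2.10), which encodes the vessel-constricting peptide endothelin, and Cited2 (0.76) were higher, and the ephrin Efna3 (-1.48) was lower. In the other 3 comparisons of IR with sham none of the 60 was called. With passage, Pdk4, which like Pdk1 inhibits pyruvate dehydrogenase, was lower in passage 2 in sham (-2.41) and in IR organoids (-2.34) of day 14. Efna3 was higher in sham organoids of day 14 (1.61), where 1.18% of all tested genes were called. Edn1 was lower in sham organoids of day 90 (-1.98; 1.36% of all tested genes called) and in IR organoids of day 14 (-1.59). In IR organoids of day 14, 5 of the 60 were called, beside 1.38% of all tested genes. There Slc2a4 (2.56) was higher and, besides Pdk4 and Edn1, Slc16a7 (-3.98) and the collagen cross-linking oxidase Lox (-1.96) were lower. From day 14 to day 90, Slc16a7 was higher in IR organoids of passage 2 (4.38), where 0.435% of all tested genes were called.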

How the data were processed

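For each of 24 libraries the authors deposited a file of raw counts by gene; the libraries were made with the QuantSeq 3' kit, which reads the 3' end of polyadenylated RNA, per the labels' protocols. The tool bcl2fastq and the build GRCm39 are listed in the submitters' processing notes; no source used here states the aligner, the counter, the annotation or the strand setting, so overlapping and near-identical genes may share reads. Lines that name no gene (5 per file) were dropped; they held 11.5% to 26.5% of reads as outside genes and 0.259% to 0.451% as ambiguous. Of 47643 identifiers, 47224 matched a symbol of GENCODE M21 (GRCm38), used for names only; Ero1a was matched through its RefSeq synonym.

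Tests were quasi-likelihood F tests (edgeR 4.0.16, R 4.3.3) on the counts, with TMM scaling, filterByExpr on the 8 groups (10563 genes left) and 1 mean per group over 24 libraries. Adjusted p-values are two-sided, Benjamini-Hochberg over all tested genes, called at 0.05 in 16 comparisons, and the SE is the log2 fold change over the square root of F. CPM use TMM factors. Genes named are Hif1a, Slc2a1, Ldha, Vegfa, Gapdh and Slc16a11, each member called in a comparison, the 3 smallest p where none was called, and up to 4 called other pathway genes a comparison by smallest p. Slc16a13, Cited2, and Pdk4 in IR organoids of day 14, are named beyond these 4. Members and lists were chosen with earlier results of these data known. A called pairwise result was fitted under 14 alternatives, 6 of which left out 1 library. The closing section names most of the alternatives, among them DESeq2 1.42.0, but not all. Replicate pairs differed by more than sampling noise (chi-square per degree of freedom 2.07 to 26.7). The script was tested on simulated counts.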

Additional observations from a re-analysis of the deposited data

How the results depend on the processing

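Without a filter on low counts the members called numbered 5, 2 and 5 for IR at day 14 passage 1, day 14 passage 2 and day 90 passage 1, 3, 6, 8 and 1 for passage in sham day 14, sham day 90, IR day 14 and IR day 90, 1, 2 and 5 for day in sham passage 1, sham passage 2 and IR passage 2, 1 for each interaction of IR with day and 21 over the 8 groups; the cause was not tested. With only the compared groups they numbered 1, 0 and 1 for IR at day 14 passage 1, day 90 passage 1 and day 90 passage 2, 1 for passage in IR day 14 and 0 for day in IR passage 2; fewer libraries enter that fit. With the Gm42418 share as a covariate 0 were called for IR at day 90 passage 1. DESeq2 called 1 and 2 for IR in passage 1 of day 14 and day 90, and 1 for passage in IR day 90. Leaving out the 5 libraries, chosen after seeing the data, gave 5 and 12 for IR at day 90, 2 and 1 for passage in IR day 14 and day 90, 6 for day in IR passage 2 and 17 over the 8 groups. The shares of all tested genes called in that fit were 2.27% and 13.9%, 1.17% and 2.29%, 4.24%, and 23.8%, in the same order. Leaving out 1 library in turn gave 0 to 1 for IR at day 14 passage 1, 0 to 1 at day 90 passage 1, 2 to 8 at day 90 passage 2, 0 to 1, 0 to 3 and 0 to 1 for passage in sham day 14, IR day 14 and IR day 90, 0 to 4 for day in IR passage 2 and 8 to 16 over the 8 groups. The other counts stayed within 1.5 times of the value reported. Counts given here without a share of all tested genes describe the settings and are not a result about the members.

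Some log2 fold changes near 0 turned sign, none of them called. For Gapdh, IR at day 90 passage 1 gave -0.0147 with the replicate block and -1.11 to 0.50 with 1 library left out, and day 14 passage 1 gave 0.060 without the 5 libraries and -0.61 to 0.11 with 1 left out. For Vegfa, day 14 passage 2 gave 0.041 with the Gm42418 covariate and -0.24 to 0.11 with 1 left out, and day 90 passage 2 gave 0.23 without the 5 and -0.29 to 0.23 with 1 left out. For Hif1a, day 14 passage 1 gave 0.079 without the 5 and -0.092 to 0.088 with 1 left out, and day 14 passage 2 gave -0.21 to 0.0027. At day 14 passage 2 Slc2a1 gave -0.50 to 0.030 and Ldha -0.032 to 0.31. Scaling by total counts moved the median of all genes by over 0.1 on the log2 scale in IR at day 90 passage 1 (-0.19) and passage 2 (-0.11), in day in sham organoids (0.23 and 0.24) and in the interactions of IR with day (-0.23 and -0.15); relative to it the enzymes' median in IR at day 90 was -0.23 and -0.29.

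Replicate numbers are those of the sample titles; for 4 of the 6 IR libraries of day 90 the deposited files carry another number. Whether the replicate numbers pair the libraries was not settled. In 0 of 12 pairwise comparisons did every same-number pair correlate above 0.1. Single pairs reached 0.39 (replicate 1, passage in IR organoids of day 90), where pairs of unlike numbers reached 0.36. With 3 libraries a group this rule cannot exclude pairing, and the differing file numbers make the titles an uncertain key. With the number as a block, 7 members were called for IR at day 90 passage 2 in place of 6 and 5 for passage in IR day 14 in place of 4, and other counts did not change. With 3 libraries a group, genes of a few counts such as Slc16a11 and Slc16a3 are limited by depth.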
